A study of Mus musculus with 14 samples.

Results

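T cells recognise antigen through a receptor made of an alpha and a beta chain. Each chain joins 1 variable segment to a joining segment and a constant gene, and most T cells keep the segments they chose in the thymus, so the mix of variable segments in a tissue reflects which T cell clones it holds. A transgenic receptor fills many T cells with 1 fixed pair of segments.

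The features described here are the variable segments and constant genes of the T cell receptor alpha and beta loci, chosen by feature name: names that begin with Trav or Trbv and a digit, or that are Trac, Trbc1 or Trbc2. The rule found 127 of 24732 features: 104 alpha variable segments, 22 beta variable segments and Trac, the alpha constant gene. The beta constant genes Trbc1 and Trbc2 and the beta variable segment Trbv31 were listed under older names, so the name rule missed them. They were matched by their place in the beta locus after the tables had been seen, and these 3 features are described beside the 127. In GENCODE M21 (GRCm38) all 127 were found by symbol on the same chromosome, 119 of them annotated as variable genes and 7 as variable pseudogenes.

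RNA of whole aorta and liver was sequenced from HuBL and BT3xHuBL mice kept on a normal laboratory diet, with a time of 52 weeks in the labels. The 14 libraries comprised 3 aortas and 4 livers of each genotype. The labels do not spell out the genotypes. From earlier studies, HuBL stands for mice with a transgene of human apolipoprotein B that lack the LDL receptor, which both genotypes here would share, and BT lines add a transgenic receptor from T cell clones reactive to human apolipoprotein B. Clones of that kind were reported to use Trbv31, but the labels name no segment, promoter or founder line for BT3. The labels do not say that libraries came from separate mice, so p-values measure the spread between these libraries, which may be technical.

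Depth ran from 41933263 to 65539765 counts in aorta and from 13228123 to 17992459 in liver. On the CPM scale (counts scaled by library size) 3 counts, the limit that a count of 0 allows, stood for 0.0458 to 0.0715 CPM in aorta and 0.167 to 0.227 CPM in liver. Smooth muscle markers (5 of 5 measured, summed level 11713 to 16029 CPM) and hepatocyte markers (102942 to 136134 CPM in liver, at most 0.791 CPM in aorta) matched the labelled tissues. The library kit reads transcripts near their 3′ ends. Variable segments lie far from that end in a finished receptor transcript. In whole tissue, fewer T cells and less receptor RNA per T cell cannot be told apart.

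In aorta, a library labelled BT3xHuBL stood apart from the others of its genotype. The library labelled BT3xHuBL aorta 3 had 2 Trbv31 counts and no Trav14-1 count, where the other BT3xHuBL aortas had 32 and 38 Trbv31 counts. The library labelled BT3xHuBL liver 3 had none of either, but the other BT3xHuBL livers had only 2, 3 and 1 Trbv31 counts, too few to set it apart. HuBL aorta 1 also stood apart from its group, with 10 Trbv31 counts against 0 and 1 in the other HuBL aortas. The genotype comparisons of the constant genes, Trbv31 and the receptor complex are given with and without the library labelled BT3xHuBL replicate 3 of the tissue. That library was singled out for its Trbv31 count, the lowest of its BT3xHuBL group, so no p is given for Trbv31 without it. Leaving it out raises the mean Trbv31 share and ratio by construction and tends to raise the fold change, so those larger values are no further evidence. In aorta that library was also the lowest of its genotype for Trac, Trbc1 and Trbc2. Leaving it out therefore tends to raise their fold changes and interaction values too, and these larger values are no further evidence either.

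A comparison between genotypes was planned for the share of Trbv31. None was planned for Trav14-1, which is shown because its counts lay in BT3xHuBL libraries only, mostly in BT3xHuBL aorta 2. Other Trav14 segments, those with counts and Trav14n-1, the nearest in sequence with Trav14d-1, show how alike the alternatives are for a short read. The last 90 coding bases of each are given 5′ to 3′ on the sense strand, from GENCODE M21 transcripts. Capitals mark bases that differ from Trav14-1. Trbv31 lies at chr6:41557691-41558452 on the minus strand, and the alpha segments on the plus strand of chromosome 14, with Trav14-1 at chr14:53554022-53554558, Trav14-2 at chr14:53640701-53641225, Trav14-3 at chr14:53763173-53763694, Trav14n-3 at chr14:53370077-53370575, Trav14d-3-dv8 at chr14:53078452-53079045 and Trav14n-1 at chr14:53166626-53167178.
Trbv31: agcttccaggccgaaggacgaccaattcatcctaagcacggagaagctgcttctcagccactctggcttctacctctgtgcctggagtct
Trav14-1: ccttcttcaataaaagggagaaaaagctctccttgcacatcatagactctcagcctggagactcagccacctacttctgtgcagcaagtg
Trav14-2: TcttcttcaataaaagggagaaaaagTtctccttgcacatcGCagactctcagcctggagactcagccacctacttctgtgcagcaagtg
Trav14-3: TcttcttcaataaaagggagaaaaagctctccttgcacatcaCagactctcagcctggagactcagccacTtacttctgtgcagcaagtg
Trav14n-3: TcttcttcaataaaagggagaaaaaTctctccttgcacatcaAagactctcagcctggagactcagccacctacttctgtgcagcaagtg
Trav14d-3-dv8: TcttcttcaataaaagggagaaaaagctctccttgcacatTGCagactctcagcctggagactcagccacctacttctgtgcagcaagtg
Trav14n-1: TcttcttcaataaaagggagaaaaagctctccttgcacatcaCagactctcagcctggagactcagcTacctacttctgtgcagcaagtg
Over these bases Trav14-1 differed from Trav14-3, Trav14n-3 and Trav14n-1 at 3 positions and from Trav14-2 and Trav14d-3-dv8 at 4. Over the last 250 coding bases it was 92.8% identical to Trav14-2, Trav14-3 and Trav14d-3-dv8, 93.2% to Trav14n-3, and 95.6% to Trav14n-1 and Trav14d-1, which had no count in any library. Trav14-3 was 98.4% identical to Trav14n-3 and 96.8% to Trav14d-3-dv8. The handling of reads that match several of these copies, not given in the sources used here, leaves the level of any single Trav14 segment uncertain.

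Few of the segments were seen. In aorta 62 of the 127 features had at least 1 count: 43 of 104 alpha segments, 18 of 22 beta segments and Trac. In liver 27 did, 9 alpha and 17 beta segments and Trac. Over both tissues 64 features had no count in any library. The alpha segments summed to 1805 counts in aorta and 14 in liver, and the 22 beta segments to 514 and 64. The low-count filter of the test kept 8 of the 127 in aorta (Trac, 5 alpha and 2 beta segments) and 1 in liver (Trac), together with Trbc1 and Trbc2 in both tissues.

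None of the receptor features passed the quasi-likelihood test of edgeR, adjusted over all features by Benjamini-Hochberg. In the aorta 0 of the 8 members tested passed, where 0.026% of 15400 features did, and 0 had an unadjusted p under 0.05, where 4.08% did. The genotypes overlapped for each of the 8, while 4.38% of all aorta features were separated with BT3xHuBL higher and 4.9% with BT3xHuBL lower. In the liver, the 1 member tested did not pass, where 0.0% of 12453 features did, and Trbc2, outside the name rule, was the receptor feature with an unadjusted p under 0.05, where 11.1% of features had one. DESeq2 also called 0 receptor features in either tissue, where it called 0.437% of aorta and 0.956% of liver features.

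The constant genes, present in every receptor transcript of their chain, gave the level of receptor RNA. In aorta Trac had 64, 45 and 75 counts in HuBL against 115, 141 and 63 in BT3xHuBL. The first 2 BT3xHuBL aortas lay above every HuBL aorta, and the library labelled BT3xHuBL aorta 3 lay among the HuBL values. Scaled to library size, Trac was at 1.09 ± 0.0966 CPM in HuBL and 1.71 ± 0.600 CPM in BT3xHuBL (SD, n = 3 each). The log2 fold change was 0.65 (SE 0.35, edgeR adjusted p = 1.00). Without the library labelled BT3xHuBL aorta 3, the lowest BT3xHuBL aorta for Trac, the log2 fold change was 0.91 (SE 0.31).

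Trbc1 and Trbc2 are alternative beta constant genes that a T cell uses one at a time. Trbc1 had 46, 65 and 88 counts in HuBL aortas and 119, 137 and 29 in BT3xHuBL aortas, and Trbc2 81, 112 and 115 against 168, 170 and 66. On the CPM scale Trbc1 was at 0.714, 1.59 and 1.39 in HuBL and 2.08, 2.05 and 0.471 in BT3xHuBL, and Trbc2 at 1.26, 2.74 and 1.82 against 2.93, 2.54 and 1.07. Both were lowest in the library labelled BT3xHuBL aorta 3, and for Trbc2 HuBL aorta 2 lay between the first 2 BT3xHuBL aortas. The log2 fold changes were 0.32 (SE 0.54) for Trbc1 and 0.18 (SE 0.41) for Trbc2, and 0.75 and 0.51 without that library. Without HuBL aorta 1 they were 0.042 and −0.057, and without BT3xHuBL aorta 1 Trbc2 was at −0.085.

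In liver the mean levels of all 3 constant genes were lower in BT3xHuBL, by most for Trbc2, and none passed the threshold. Trbc2 had 42, 24, 36 and 33 counts in HuBL livers and 21, 12, 20 and 18 in BT3xHuBL livers. Scaled to library size the genotypes did not overlap, a separation found in the same direction for 3.58% of all liver features tested and in the other for 2.99%. Trbc2 was at 2.27 ± 0.477 CPM in HuBL and 1.11 ± 0.232 CPM in BT3xHuBL (SD, n = 4 each). The log2 fold change was −1.02 (SE 0.26) with an edgeR adjusted p = 0.281. With 1 library left out in turn it ran from −1.11 to −0.90.

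Trac had 15, 8, 22 and 16 counts in HuBL livers and 11, 17, 11 and 7 in BT3xHuBL livers, a log2 fold change of −0.50 (SE 0.39, edgeR adjusted p = 0.642), or −0.19 to −0.77 with 1 library left out. Trbc1 had 20, 7, 23 and 18 counts against 17, 18, 14 and 15, a log2 fold change of −0.18 (SE 0.34, adjusted p = 0.87), and 0.078 without HuBL liver 3. The genotypes overlapped for both genes. Trbc2 made up 61.0% to 77.4% of the beta constant counts in HuBL livers and 40.0% to 58.8% in BT3xHuBL livers, and 56.7% to 63.8% and 55.4% to 69.5% in aortas. These shares did not overlap in liver and overlapped in aorta; no test of a share was planned for the constant genes. The coding parts of Trbc1 and Trbc2 were 95.56% identical in GENCODE M21, but their 3′ untranslated parts only 65.68%, with no shared run longer than 8 bases.

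**Figure D1:**
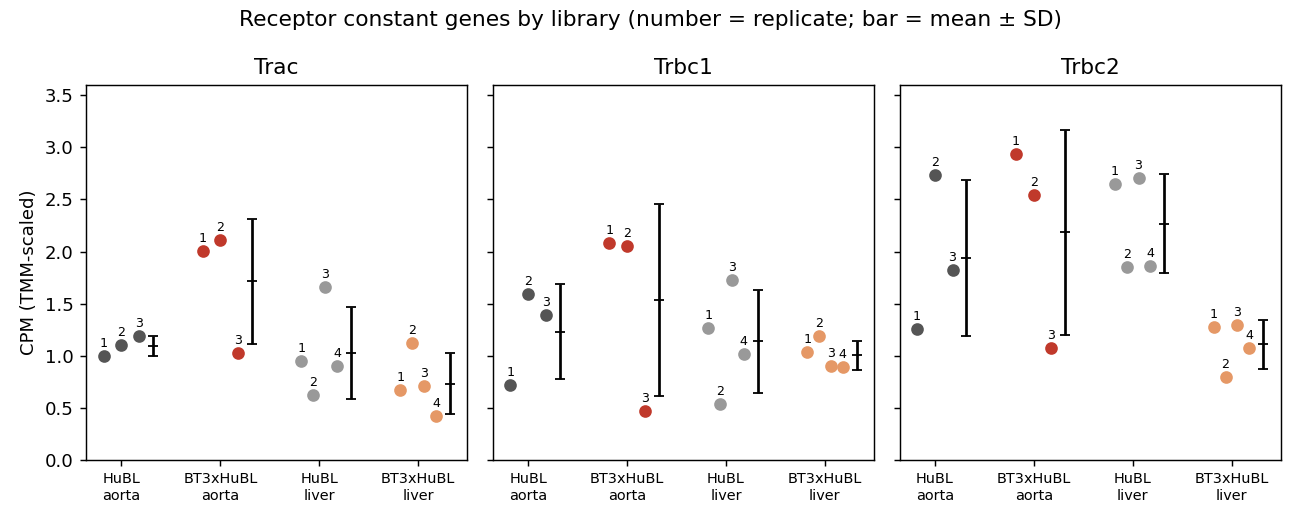
CPM (TMM-scaled) of Trac, Trbc1 and Trbc2 on the vertical axis in every library of the 4 groups; digits are replicate numbers and bars show mean ± SD (n = 3 per aorta group, 4 per liver group). In aorta BT3xHuBL 1 and 2 are above all HuBL libraries for Trac and Trbc1 but not for Trbc2, BT3xHuBL 3 is the lowest library for Trbc1 and Trbc2, and in liver all 4 BT3xHuBL libraries are below all 4 HuBL libraries for Trbc2.

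Whether the genotype difference was itself different between the tissues was tested as an interaction over all 14 libraries. The difference, aorta minus liver on the log2 scale, was 1.22 (SE 0.51) for Trbc2, 1.16 (SE 0.54) for Trac and 0.51 (SE 0.68) for Trbc1. The edgeR p was 0.0313, 0.0501 and 0.463, with adjusted p = 0.587, 0.613 and 0.885. No receptor feature passed, and 0.0% of 14912 features did, while 8.16% had an unadjusted p under 0.05. Without the library labelled BT3xHuBL aorta 3, the lowest BT3xHuBL aorta for each of these genes, the interaction was 1.55 for Trbc2, 1.42 for Trac and 0.94 for Trbc1.

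Trbv31 was the beta segment with the most counts in BT3xHuBL. Its counts were 10, 0 and 1 in HuBL aortas and 32, 38 and 2 in BT3xHuBL aortas, and 0 in all 4 HuBL livers against 2, 3, 0 and 1 in BT3xHuBL livers. It led the beta segments in the first 2 BT3xHuBL aortas, while HuBL aortas 1 and 3 were led by Trbv3 (24 and 27 counts), HuBL aorta 2 by Trbv1 (13) and the library labelled BT3xHuBL aorta 3 by Trbv17 (12).

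As a share of the counts of all 23 beta variable segments, Trbv31 made up 8.40% (of 119 counts), 0% (of 60) and 0.532% (of 188) in HuBL aortas. In BT3xHuBL aortas it made up 39.5% (of 81), 34.9% (of 109) and 5.0% (of 40). The exact Clopper-Pearson 95% intervals were 28.8% to 51.0% and 26.0% to 44.6% in the first 2 BT3xHuBL aortas, above the upper bound of 14.9% in HuBL aorta 1. The interval of the library labelled BT3xHuBL aorta 3, 0.611% to 16.9%, overlapped those of all 3 HuBL aortas. The mean shares were 2.98% ± 4.71 in HuBL and 26.5% ± 18.7 in BT3xHuBL (SD, n = 3 each), a difference of 23.5 percentage points, with p = 0.2 in an exact two-sided permutation test that cannot go below 0.1. Without the library labelled BT3xHuBL aorta 3 the difference was 34.2 points, larger by construction. Without HuBL aorta 1, the highest HuBL aorta, it was 26.2 points, also larger by construction.

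In liver the beta segments gave only 3 to 14 counts per library. Trbv31 made up 0% of 10, 5, 14 and 10 counts in HuBL livers and 66.7% of 3, 42.9% of 7, 0% of 13 and 12.5% of 8 in BT3xHuBL livers. A share of 0 of 13 allows up to 24.7%, and 0 of 5 up to 52.2%, so at this depth single livers do not separate. The mean share was 0% against 30.5% ± 30.1 (SD, n = 4 each), with p = 0.143 in the exact two-sided permutation test, whose smallest p is 0.0286. Without the library labelled BT3xHuBL liver 3 the difference was 40.7 points, larger by construction. Summed over libraries, Trbv31 took 11 of 367 beta counts in HuBL aortas and 72 of 230 in BT3xHuBL aortas, and 0 of 39 and 6 of 31 in livers. Intervals cover counting error only.

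**Figure D2:**
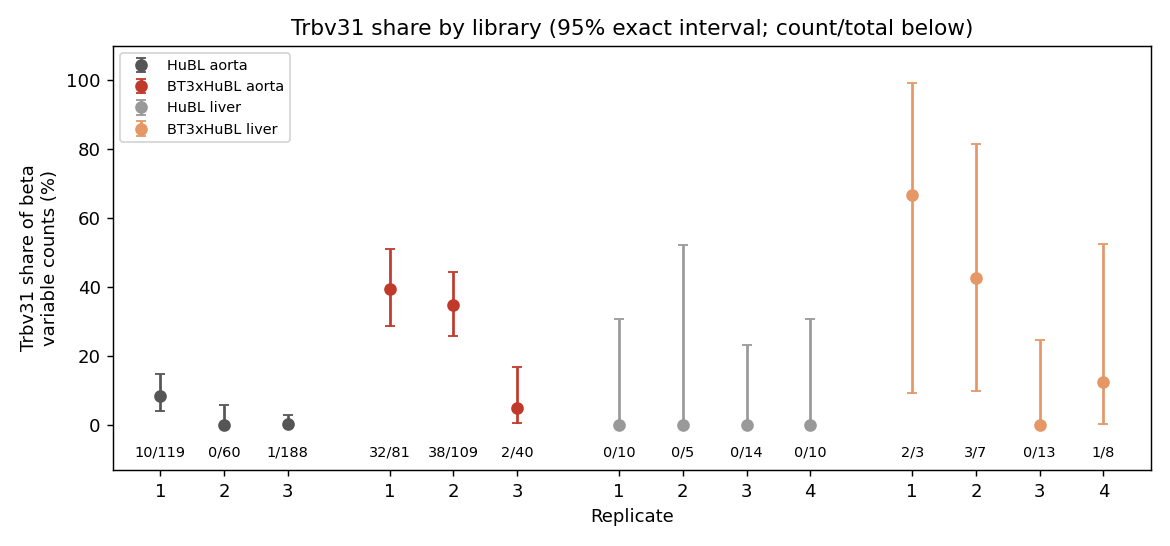
Share of Trbv31 in the counts of all 23 beta variable segments (vertical axis, %) in each library by group and replicate, with exact 95% intervals and the count over the total beneath. BT3xHuBL aortas 1 and 2 sit at 39.5% and 34.9%, above all HuBL aortas; BT3xHuBL aorta 3 at 5.0% does not, and liver intervals are wide.

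Set against the beta constant genes, Trbv31 gave 2.79 ± 4.41 counts per 100 Trbc1 and Trbc2 counts in HuBL aortas and 8.54 ± 5.61 in BT3xHuBL aortas (SD, n = 3 each, exact permutation p = 0.2). In livers the ratio was 0 against 4.57 ± 4.21 (SD, n = 4 each, exact permutation p = 0.143). Without the libraries labelled BT3xHuBL aorta 3 and liver 3 the BT3xHuBL ratio was 11.8 in aorta and 6.10 in liver. With no low-count filter, edgeR gave Trbv31 a log2 fold change of 2.64 in aorta (SE 1.24, adjusted p = 0.985), or 3.17 (SE 1.09) without the library labelled BT3xHuBL aorta 3. In that fit 0.0473% of aorta features passed. In liver the same fit gave Trbv31 and Trbv13-2 an unadjusted p under 0.05, 2 of the 27 variable segments with a count there (Trbv31 included), where 9.14% of all liver features had one, with adjusted p = 0.51 and 0.52.

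Beta counts were spread over more segments in HuBL aortas. Of 23 beta segments, 17, 13 and 17 were seen in HuBL aortas and 12, 10 and 11 in BT3xHuBL aortas. Because more counts reveal more segments, the number expected at 40 counts, the total of the smallest library, was computed: 12.6, 11.2 and 13.1 in HuBL and 9.54, 7.53 and 11.0 in BT3xHuBL. The effective number of segments, the inverse of the chance that 2 counts come from the same segment, was 9.92, 8.72 and 12.2 in HuBL and 4.89, 4.73 and 7.16 in BT3xHuBL. The genotypes did not overlap in either measure, and the library labelled BT3xHuBL aorta 3 was the BT3xHuBL library nearest to HuBL. With Trbv31 left out, the number expected at 38 counts was 11.8, 11.0 and 12.8 in HuBL and 10.1, 7.35 and 10 in BT3xHuBL. The effective number was then 8.88, 8.72 and 12.1 against 7.08, 4.58 and 6.51, and again neither overlapped. With Trbv31 left out, BT3xHuBL aorta 1 and not the library labelled BT3xHuBL aorta 3 was nearest to HuBL in both measures. No test was planned for these measures.

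Some segments counted in HuBL aortas had few or no counts in BT3xHuBL aortas. Trbv14 had 12, 0 and 12 counts in HuBL and 0 in all 3 BT3xHuBL aortas, and Trbv2 10, 0 and 10 against 0 in all 3. Trbv15 had 3, 4 and 3 counts against 0, and Trbv16 had 3, 9 and 12 against 1, 0 and 1. Trbv3 had 24, 1 and 27 counts against 2, 1 and 5. The genotypes did not overlap for Trbv15 and Trbv16, a separation found in this direction for 4.53% of all aorta features with a count, and overlapped for Trbv14, Trbv2 and Trbv3 through HuBL aorta 2, the shallowest aorta library. On the CPM scale Trbv26 was also lower in BT3xHuBL aortas without overlap, with 2, 1 and 4 counts in HuBL against 0, 1 and 0. Trbv13-1 went the other way without overlap, with 0, 0 and 1 counts in HuBL against 1, 4 and 7. The first 5 segments named, chosen for low BT3xHuBL counts after their values were seen, missed the low-count filter. Without it edgeR gave them unadjusted p from 0.0126 to 0.0413, where 4.17% of all aorta features had a p under 0.05, and adjusted p = 0.985 for each. Of the 62 features of the name rule with a count in aorta, only these 5, Trav14-1 and Trav7d-4 had an unadjusted edgeR p under 0.05. That p was 0.0218 for Trav14-1 and 0.0303 for Trav7d-4, with adjusted p = 0.985 for both. Trav7d-4 had 6, 0 and 8 counts in HuBL aortas and 0 in BT3xHuBL aortas.

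Other frequent beta segments overlapped between the genotypes. Trbv1 had 5, 13 and 18 counts in HuBL aortas and 10, 26 and 4 in BT3xHuBL aortas (log2 fold change −0.08, SE 0.83), with its sign depending on the library left out. Trbv12-2 had 1, 9 and 22 counts against 9, 0 and 0 (−1.90, SE 1.39), so its BT3xHuBL counts all came from BT3xHuBL aorta 1. Without that library the fitted value was −6.54, which depends on the prior count since both other BT3xHuBL aortas were at 0. Trbv13-2 had 18, 6 and 7 against 12, 10 and 2, and Trbv13-3 1, 7 and 20 against 4, 10 and 0. The counts of these 4 segments varied several-fold within each genotype. In liver Trbv13-2 had 4, 2, 3 and 1 counts in HuBL and 0, 1, 1 and 0 in BT3xHuBL, and Trbv13-3, Trbv12-1, Trbv14 and Trbv19 summed to 2, 2, 4 and 3 counts in HuBL against 3, 4, 1 and 2. Such sums are too small to read a difference from.

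**Figure D3:**
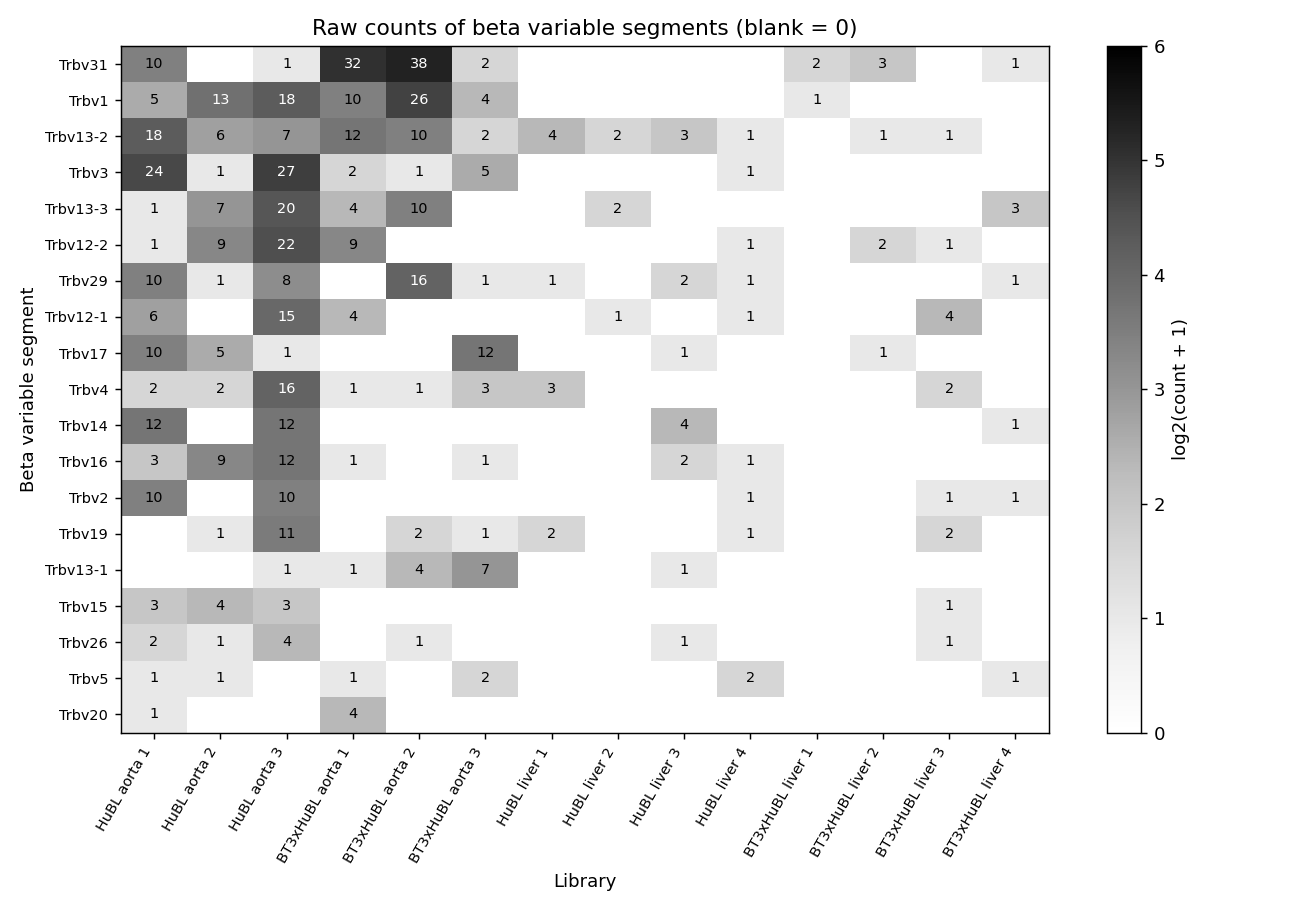
Raw counts of the 19 beta variable segments with any count (rows) in each library (columns), shaded by log2(count + 1), with blanks for 0. Trbv31 is darkest in BT3xHuBL aortas 1 and 2 (32 and 38 counts), and Trbv14, Trbv2 and Trbv15 are blank in all 3 BT3xHuBL aortas.

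Among alpha segments Trav14-1 had no count in any of the 7 HuBL libraries. It had 4, 52 and 0 counts in BT3xHuBL aortas and 1, 1, 0 and 2 in BT3xHuBL livers. The 5 libraries with a Trav14-1 count all had Trbv31 counts. HuBL aortas 1 and 3 and the library labelled BT3xHuBL aorta 3 had Trbv31 counts (10, 1 and 2) but no Trav14-1 count. The library labelled BT3xHuBL liver 3 had neither, but with 1 or 2 Trav14-1 counts in the other BT3xHuBL livers this does not set it apart. BT3xHuBL aorta 2 alone held 52 of the 56 aorta counts, although its Trbv31 count (38) was close to that of BT3xHuBL aorta 1 (32), which had 4. The ratio of these segments was therefore far from constant between libraries. Without a low-count filter edgeR gave Trav14-1 an adjusted p = 0.985 in aorta and adjusted p = 0.552 in liver.

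Most alpha counts of the aorta lay on 5 segments, the 5 that passed the low-count filter, with ranges that overlapped between genotypes. Trav14-3 had 113, 119 and 105 counts in HuBL and 81, 178 and 140 in BT3xHuBL, and Trav14n-3 had 37, 32 and 80 against 62, 81 and 65. Trav14d-3-dv8 had 8, 29 and 42 against 27, 47 and 27. In HuBL aorta 1 the last of these was lowest, with 8 counts. Trav13-4-dv7 had 36, 15 and 32 counts against 36, 32 and 25, and Trav13n-4 had 5, 12 and 10 against 23, 16 and 12. Their log2 fold changes ran from 0.015 (SE 0.33, Trav14-3) to 0.69 (SE 0.72, Trav13n-4), and none passed (edgeR adjusted p = 1.00 for each).

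Together these 5 held 77.7% to 95.7% of alpha variable counts in every aorta library. They numbered 1527 of 1805 counts, and the other 99 alpha segments shared the rest. Their summed level, 3.09 to 5.30 CPM, had a coefficient of variation of 18.2% over the 6 aortas, against 36.6% for Trac, 48.5% for Trbc1 and 38.4% for Trbc2. A sum tends to vary less than its parts. The single segments ran from 19.7% (Trav13-4-dv7) to 49.4% (Trav13n-4), a range that holds the constant genes. The 5 gave 1.99 to 4.60 counts for each Trac count. BT3xHuBL aorta 2 was highest in both, with 354 counts on the 5 and 141 Trac counts. But the library labelled BT3xHuBL aorta 3, with 63 Trac counts, had 269, and BT3xHuBL aorta 1, with 115 Trac counts, had 229. Whether the 5 follow Trac was not tested. In liver, where Trac was at 0.416 to 1.66 CPM against 0.993 to 2.11 CPM in aorta, 2 of the 5 had 1 count each and the others none.

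The 5 segments lie in repeated stretches of the alpha locus, where a Trav13 segment precedes a Trav14 segment. Trav13-4-dv7 (chr14:53757356-53757921) lies 5.25 kb before Trav14-3, and Trav13n-4 (chr14:53362267-53364106) 5.97 kb before Trav14n-3. Trav14d-3-dv8 lies 5.18 kb after Trav13d-4, which is not among the 5 and had 2 counts. Trav14-3 was counted over a feature of 1961 bases in the tables, against 522 bases in GENCODE M21. Trdv4, a delta variable segment that also lies in this locus, showed the same tissue pattern, with 49 to 73 counts in each aorta and 0 to 2 in each liver.

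**Figure D4:**
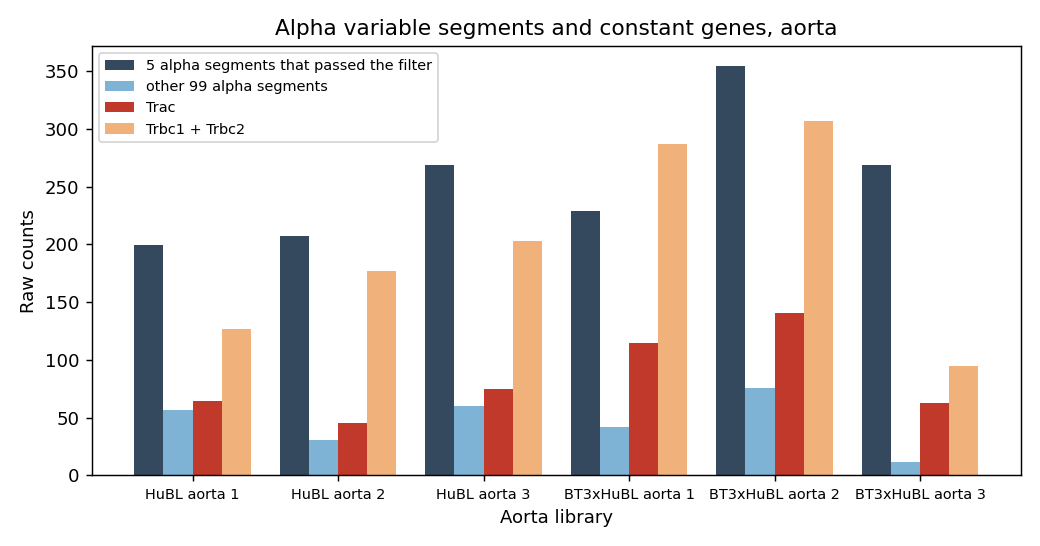
Raw counts in each aorta library of the 5 alpha segments that passed the low-count filter, of the other 99 alpha segments, of Trac, and of Trbc1 and Trbc2 summed. The 5 segments exceed Trac in every library by 1.99 to 4.60 times and have 269 counts in BT3xHuBL aorta 3, where Trbc1 and Trbc2 sum to their lowest, 95.

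The other 99 alpha segments gave 57, 31 and 60 counts in HuBL aortas and 42, 76 and 12 in BT3xHuBL aortas. Among them Trav14-1 took 0 of 148 counts in HuBL aortas, and 4 of 42, 52 of 76 and 0 of 12 in BT3xHuBL aortas 1, 2 and 3. Summed, the BT3xHuBL aortas had 56 of 130, nearly all from BT3xHuBL aorta 2. No interval is given for these sums, since the counts of a library are not replicates of its genotype. In single libraries the leading segments outside the 5 were Trav9-2 (10 counts), Trav4-4-dv10 (6) and Trav14-2 (14) in HuBL aortas 1, 2 and 3, and Trav6-5 (12), Trav14-1 (52) and Trav7-3 (4) in BT3xHuBL. In livers Trav19 and Trav7d-3 had 2 counts each and Trav12-1 had 1, all in BT3xHuBL.

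Joining segments, which link variable segment and constant gene, were sparse too. The 59 alpha joining features had 28, 11 and 10 counts in HuBL aortas and 30, 6 and 7 in BT3xHuBL aortas, and the 14 beta joining features 20, 12 and 39 against 41, 36 and 14. Both sums overlapped between genotypes.

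Genes of the receptor complex and its signalling stand beside the receptor. Of 22 such genes 21 were tested in aorta and 0 passed; 9 lay above and 12 below 0. Their median log2 fold change was −0.04, and that of all features −0.0044. The aorta levels of these genes differed widely. Mean Cd3e was at 1.32 CPM in HuBL and 1.98 CPM in BT3xHuBL, against 13.4 and 13.6 for Cd4. Lcp2 was at 43.3 and 41.2 CPM, Fyn at 42.9 and 45.4, and Ptprc at 193 and 181. Which cells this RNA came from was not tested, so the median is not read as T cell content. Cd3e, a signalling chain of the receptor complex, had 45, 68 and 101 counts in HuBL aortas and 198, 103 and 57 in BT3xHuBL aortas, and Cd3g 111, 162 and 232 against 294, 224 and 135. On the CPM scale both were highest in BT3xHuBL aorta 1 (3.46 and 5.13 CPM), but unlike Trac they were lower in BT3xHuBL aorta 2 (1.54 and 3.35 CPM) than in HuBL aorta 2 (1.66 and 3.96 CPM). The log2 fold change of Cd3d was −0.04 (SE 0.31) and that of Cd247 −0.35 (SE 0.36); both are further signalling chains. The coreceptors Cd4, Cd8a and Cd8b1 gave 0.01 (SE 0.23), −0.59 (SE 0.34) and −0.63 (SE 0.53). Without the library labelled BT3xHuBL aorta 3, Cd3e was at 0.92, Cd3g at 0.45, Cd3d at 0.16, Cd4 at 0.18, Cd247 at −0.17, Cd8a at −0.37 and Cd8b1 at −0.42, none past the threshold.

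In liver 16 of these genes were tested, 0 passed, and all 16 lay below 0. Their median log2 fold change was −0.67, and that of all features 0.0092. Cd4, the coreceptor of helper T cells, had 40, 49, 42 and 49 counts in HuBL livers and 19, 20, 30 and 7 in BT3xHuBL livers, a log2 fold change of −1.34 (SE 0.36, edgeR adjusted p = 0.281). Every BT3xHuBL liver was below every HuBL liver for Cd4, a separation found in this direction for 3.58% of all liver features tested. Cd3d gave −1.48 (SE 0.49), Cd3e −1.12 (SE 0.38), Cd3g −1.11 (SE 0.42) and Cd247 −0.70 (SE 0.36), with edgeR adjusted p from 0.334 to 0.482. Cd8a and Cd8b1, the chains of the coreceptor of killer T cells, gave −0.64 (SE 0.34) and −0.46 (SE 0.46). Without the library labelled BT3xHuBL liver 3, Cd4 was at −1.66, Cd3d at −1.18, Cd3e at −1.42, Cd3g at −1.45, Cd247 at −0.91, Cd8a at −0.76 and Cd8b1 at −0.42, none past the threshold. These genes pointed the same way as Trbc2, but each by itself missed the threshold.

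**Figure D5:**
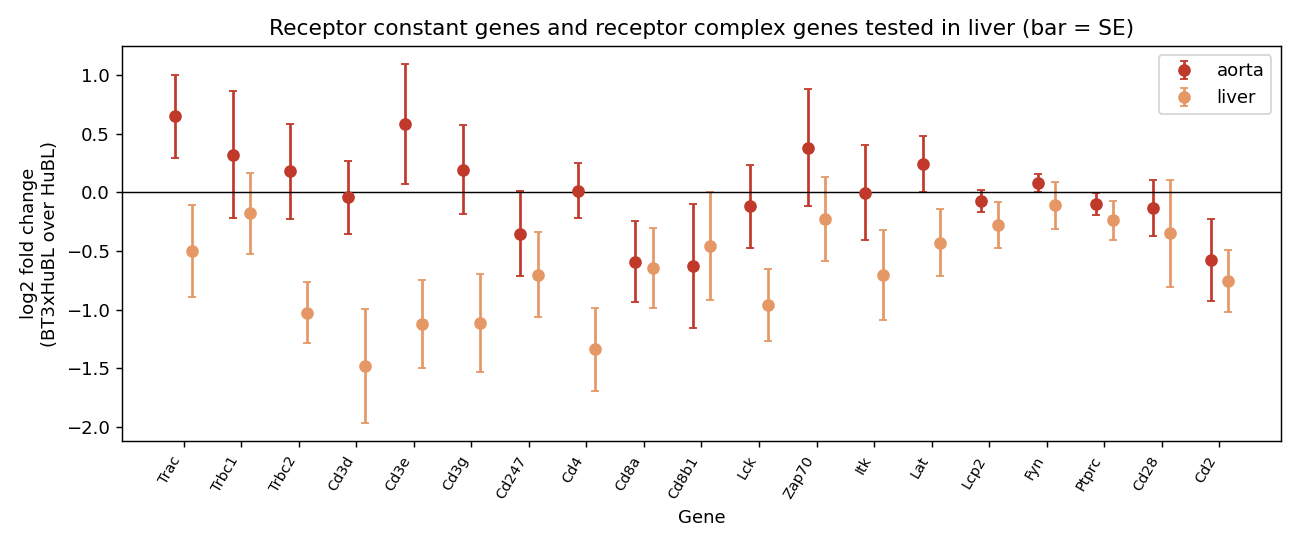
Log2 fold change of BT3xHuBL over HuBL (vertical axis; bars show SE) in aorta and liver for the constant genes and the 16 receptor complex and signalling genes tested in liver. All liver values lie below 0, while aorta values lie on both sides.

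Genes for receptor assembly and the gamma and delta chains served to look for immature or other T cells. Of 16 features, 4 were tested in aorta and 1 in liver, and 0 passed in either, with medians of −0.10 and 0.47. Rag1 and Rag2, which cut the loci during assembly, had at most 4 counts and 1 count in any library, and Ptcra, the surrogate alpha chain of thymocytes, at most 6. Tcrg-C, a gamma constant feature, had 14, 11 and 11 counts in HuBL aortas and 70, 47 and 13 in BT3xHuBL aortas (log2 fold change 1.70, SE 0.68, edgeR adjusted p = 1.00). It was high in the same 2 BT3xHuBL aortas as Trac and Trbv31. Dntt, which adds bases at the junctions, had at most 1 count in any aorta but 44 to 72 counts in HuBL livers and 62 to 121 in BT3xHuBL livers.

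Markers of other cells are given beside the receptor values. The 5 B cell markers summed to 12.4 to 19.2 CPM in HuBL aortas and 5.66 to 8.59 CPM in BT3xHuBL aortas, and to 6.02 to 12.8 and 5.87 to 10.02 CPM in livers, with none of the markers at 0. The natural killer cell markers summed to 2.62 to 3.57 and 1.97 to 4.79 CPM in aortas and 2.78 to 3.46 and 2.71 to 3.82 CPM in livers. Lymph node stroma markers summed to 6.92 to 12.3 and 4.44 to 15.9 CPM in aortas, with Ccl21a at 0, and 1.85 to 4.10 and 2.52 to 4.16 CPM in livers, with Ccl19 and Ccl21a at 0. Most of the aorta sum was Cxcl13 (mean 8.95 CPM in HuBL and 8.48 CPM in BT3xHuBL). A Ccl19 feature had no count in HuBL aortas and 0 to 37 counts in BT3xHuBL aortas. Thymocyte markers summed to 7.34 to 8.78 and 5.72 to 12.4 CPM in aortas (Rag2 at 0) and 237 to 314 and 195 to 214 CPM in livers (Rag1 at 0), nearly all of it Cd1d1. Smooth muscle markers in livers summed to 19.4 to 38.9 CPM in HuBL and 13.0 to 21.5 CPM in BT3xHuBL. Monocyte and macrophage markers (4 found) summed to 5383 to 6250 and 4397 to 6636 CPM in aortas and 88.3 to 122 and 72.5 to 141 CPM in livers. No marker passed the test. The summed B cell markers in aorta were lower in BT3xHuBL without overlap. So was the thymocyte sum in liver, which was nearly all Cd1d1 (log2 fold change −0.44, SE 0.10). Dntt, the other thymocyte marker tested in liver, went the other way (0.47, SE 0.25). Among single features, 4.9% in aorta and 3.58% in liver were separated with BT3xHuBL lower. The part of these cells in the receptor values was not tested.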

How the data were processed

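The deposited values were raw counts per feature, 1 table per tissue with the same 24732 features. Per the submitters' processing notes HTSeq 2.0 and GRCm38 were used; not given in the sources used here were aligner, strand setting and annotation. Lexogen QuantSeq V2 libraries were prepared from RNA of a Qiagen RNeasy extraction, per the labels' protocols. Feature starts in the beta locus differed from GENCODE M21 by 49786 to 50002 bases, so positions and sequences come from GENCODE M21 by symbol; Trbv31, Trbc1 and Trbc2 were matched by this offset (50000, 50002 and 50002 bases).

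In edgeR 4.0.16 (R 4.3.3), separately by tissue, features kept by filterByExpr were scaled by TMM and tested by the robust quasi-likelihood F-test, with p-values adjusted by Benjamini-Hochberg over all features and a threshold of 0.05. CPM were computed from the deposited counts with TMM-scaled library sizes, and fold changes carry a prior count of 0.125. The interaction used all 14 libraries. Trbv31 shares were compared by exact two-sided permutation (SciPy 1.17.1). Alternatives were other scalings, filters and fits, DESeq2 1.42.0, the replicate number as a block, another denominator and each library left out. The edgeR script was tested on simulated data. Libraries of a group were distinct (chi-square per degree of freedom 12.88 to 80.27).

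Members and lists were chosen with earlier results of these data known. Named genes follow a rule: the constant genes, Trbv31, segments passing a test, the 6 segments of most counts per tissue and chain, the 4 of smallest p, and the CD3 and coreceptor genes. Trbv2, Trbv15, Trbv16 and Trbv17 fall outside it and were named after their values were seen. The same holds for Trav9-2, Trav4-4-dv10, Trav6-5, Trav7-3, Trav7d-4, Trav6-2, Trav13d-4, Trdv4 and the Trav14 segments compared by sequence. Counts without BT3xHuBL replicate 3 for Trbv31 and the receptor complex, and without Trbv31 for the number of segments, were chosen after seeing the data.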

Additional observations from a re-analysis of the deposited data

Results flagged for a closer look

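In groups of 4 libraries, the receptor sums and the depth of each were searched for a library far from the others (22 tests, of which chance flags about 1 in 20). HuBL liver 4 was the 1 HuBL liver with an alpha variable count, 1 count of Trav6-2 or 0.0563 CPM, against 0 in the other 3; this is below the 3 counts that a count of 0 allows. BT3xHuBL liver 4 was the deepest of its group with 17992459 counts, against 14860250 to 15342415 in the other 3.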

How the results depend on the processing

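No receptor feature was called under any setting run. Over all features the calls moved: in aorta from 4 to 75 with DESeq2 and 9 with no low-count filter, and from 0 (without HuBL aorta 2 or 3) to 27 (without BT3xHuBL aorta 3) with 1 library left out, 2 of them without HuBL aorta 1. In liver 0 became 121 with DESeq2, 5 with all 14 libraries in one fit, and 0 to 5 with 1 library left out (5 without BT3xHuBL liver 2, 2 without BT3xHuBL liver 3). The interaction called 0 to 3 (3 without BT3xHuBL liver 2). Numbers in the titles did not pair libraries: same-number correlations were −0.0575 to 0.135 in aorta and −0.0423 to 0.159 in liver, and 2 of 6 aorta and 3 of 8 liver libraries correlated best with their own number. With the replicate number as a block 14 aorta and 10 liver features were called.

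With 1 library left out, log2 fold changes crossed 0 for Trbc2 in aorta (−0.085 to 0.51), Trav14-3 (−0.18 to 0.31), Trav14d-3-dv8 (−0.35 to 0.45), Trav13-4-dv7 (−0.11 to 0.20), Trbv1 (−0.89 to 0.34) and Trbc1 in liver (−0.40 to 0.078), and Cd3d in aorta was at 0.158 without BT3xHuBL aorta 3, against −0.042 with it; the cause was not tested. The Trbv31 difference stayed between 17.0 and 34.2 points in aorta and 18.5 and 40.7 points in liver. Trbv31 shares with suffixed feature names left out were not computed, since every beta segment carries one. DESeq2 gave Trbc2 in liver an adjusted p of 0.0831. Depth limits most segments: 61 of 104 alpha segments in aorta and 95 in liver had no count.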
